A study of Mus musculus with 66 samples.

Results

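Genes of the muscle acetylcholine receptor and of the endplate were followed across the mRNA-Seq libraries of C2C12 cells, a mouse skeletal myoblast line that fuses into myotubes when serum is withdrawn. The genes were chosen by name, with earlier results of these data known, and are 10 of the 22489 genes in the table. They are the receptor subunit genes Chrna1, Chrnb1, Chrnd, Chrng and Chrne, the genes Lrp4, Musk, Dok7 and Rapsn of the agrin pathway, and the acetylcholinesterase gene Ache. Each was measured in 20 libraries, 1 in growth and 1 after differentiation from each of 10 lines. WT cells carried no transgene, and 9 lines each carried an inducible GFP-H3 transgene. The GFP-fused histones were the H3.1/H3.2-type H3.1, H3.2 and H3t, and the H3.3-type H3.3, H3mm16, H3mm13, H3mm12, H3mm11 and H3mm7. Growing cells (0 h) were kept in medium with 20% fetal bovine serum and harvested before confluence. Differentiated cells were harvested at 48 h, after confluent cells had been moved to 2% horse serum. Serum, cell density and time in culture changed together, so that their shares in a difference between the states cannot be told apart.

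The muscle receptor is a ring of membrane subunits that opens a cation channel when acetylcholine binds. A pair of α subunits is joined by β, δ and either γ, which marks the fetal receptor, or ε, which replaces γ in adult innervated muscle. At the endplate, agrin from the nerve binds Lrp4, which activates the kinase MuSK; Dok7 binds MuSK inside the cell, and rapsyn clusters the receptors. Acetylcholinesterase ends the signal in the synaptic cleft. Myogenic factors such as myogenin bind E-boxes in the regulatory regions of receptor subunit genes.

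Values are FPKM, which are scaled for transcript length and library size, so that levels of different genes can be set side by side. The lines were used as replicates of each state. They are separately made lines with 1 library per state, so their spread holds line, transgene and technical differences together, and a GFP-H3 variant cannot be told apart from its line. The GFP-H3 lines were grown under doxycycline and drug selection and sorted for GFP. Read numbers are unknown, so no counting error is given. Between 13858 and 16865 genes lay above 0 FPKM in a library. WT stood apart from the GFP-H3 lines in the table. Gapdh was listed at 0.361 FPKM in growing and 0.263 FPKM in differentiated WT cells against 783 to 2094 FPKM in the 18 other libraries. In all, 388 genes lay more than 8-fold lower in both WT libraries than in every other library, and 0 of the 10 endplate genes were among them. This screen could hardly flag a gene that was near 0 in growing GFP-H3 lines, such as Chrng. It could not flag Chrne or Ache, which were listed at 0 in GFP-H3 libraries. For such genes it does not show that WT values are sound. How WT reads were mapped is not given in the sources used here. Results over 10 lines were therefore also computed over the 9 GFP-H3 lines. The label of the cells was checked against 8 markers of myoblasts and myotubes. Des, Myod1 and Myf5 were above 0 FPKM in all 20 libraries, and the highest value of Pax7 was 0.982 FPKM. The sum of 5 cholinergic neuron markers was at most 0.209 FPKM and that of 5 Schwann cell markers at most 1.50 FPKM, with no gene of either list above 1.07 FPKM.

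Most of the receptor and endplate genes were higher after differentiation. A filter on low values, a mean of at least 1 FPKM over the 20 libraries, was passed by 8 of the 10 genes, and these 8 had a mean above 1 FPKM in each state. All 8 were called higher in differentiated cells by limma on log2(FPKM + 1), where a call required both an adjusted p (Benjamini-Hochberg) under 0.05 and a log2 difference no smaller than 1. Of all 10954 genes tested, 972 (8.87%) were called higher and 921 (8.41%) lower. The median log2 difference was 2.05 over the 8 genes and 0.04 over all genes tested. Chrne and Ache did not pass the filter. In bulk RNA a larger share of differentiated cells and more RNA per cell cannot be told apart.

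**Figure D1:**
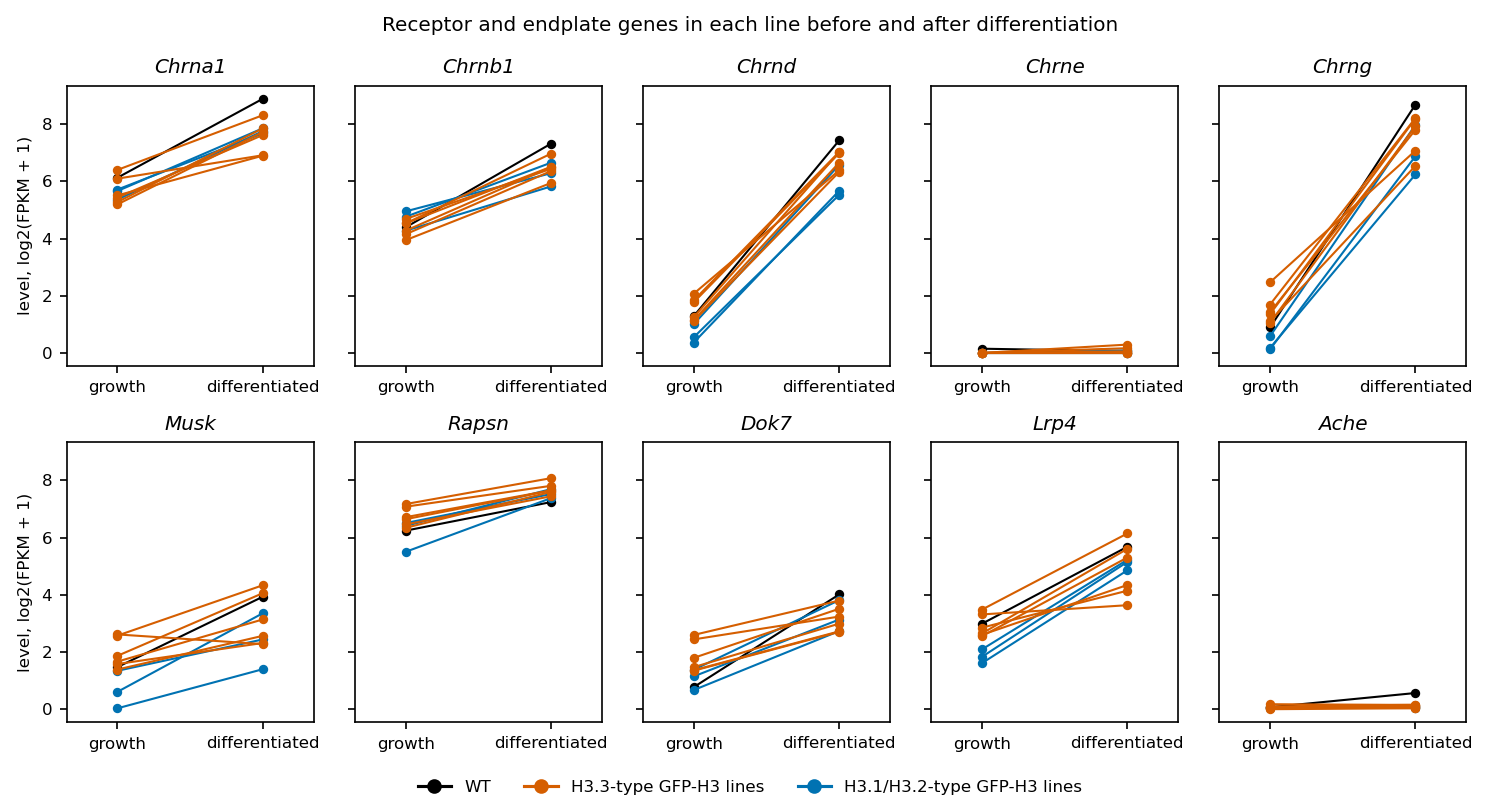
Level of each of the 10 genes on the log2(FPKM + 1) scale in growth and in differentiated cells, with 1 joined pair of points per line (WT in black, 6 H3.3-type lines in orange, 3 H3.1/H3.2-type lines in blue). Chrng and Chrnd climb from near the bottom of the axis in every line, whereas Chrne and Ache stay near 0.

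Chrna1, which encodes the α subunit that binds acetylcholine, was already expressed in growing myoblasts. Its level in growth was 35.7 FPKM in the lowest line (H3mm13), 47.1 at the median and 83.6 in the highest (H3mm12). After differentiation it was 118 FPKM in the lowest line (H3mm11), 214 at the median and 474 in the highest (WT). The states did not overlap, and Chrna1 was higher after differentiation in 10 of 10 lines. The difference was 2.07 on the log2(FPKM + 1) scale (SE 0.21, adjusted p = 3.95e-08, limma), and 2.00 without WT.

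Chrnb1, the β subunit gene, had the same course at a lower level. In growth it ranged from 14.4 FPKM in H3mm11 to 29.9 FPKM in H3.1, with a median of 21.0. Its differentiated levels ran from 55.6 FPKM in H3t to 159 FPKM in WT, with a median of 87.7. Again the states did not overlap. The log2 difference was 2.03 (SE 0.16, adjusted p = 7.77e-10, limma, 10 of 10 lines), and 1.93 without WT.

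The genes of the δ and γ subunits showed the largest differences of the 8. Chrnd, the δ subunit gene, was between 0.288 FPKM (H3t) and 3.21 FPKM (H3mm7) in growth, with a median of 1.30. After 48 h it was between 45.2 FPKM (H3.1) and 172 FPKM (WT), with a median of 97.1. The lowest differentiated library lay far above the highest growth library. The log2 difference was 5.32 (SE 0.24, adjusted p = 4.51e-13, limma, 10 of 10 lines), and 5.23 without WT.

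Chrng, which encodes the γ subunit of the fetal receptor, went from a growth level as low as that of Chrnd to a level near that of Chrna1. In growth the lowest line was H3.1 at 0.0951 FPKM, the median 1.11 FPKM and the highest line H3mm7 at 4.54 FPKM. In differentiated cells the lowest was H3t at 74.8 FPKM, the median 233 FPKM and the highest WT at 411 FPKM. No growth library came near the lowest differentiated library. The difference was 6.47 on the log2(FPKM + 1) scale (SE 0.32, adjusted p = 8.93e-13, limma, 10 of 10 lines), and 6.32 without WT. Because 1 FPKM was added before the logarithm, this scale understates the fold of a gene as low as Chrng in growth.

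Chrne, the gene of the adult ε subunit, was at or near 0 in both states. It was listed at 0 in 9 of 10 growth libraries, with 0.109 FPKM in WT as the exception. In differentiated cells it was listed at 0 in 5 of 10 libraries, and the highest value was 0.224 FPKM in H3mm13. Chrng exceeded Chrne in 10 of 10 libraries of either state, and in differentiated cells the lowest Chrng value (74.8 FPKM) stood against a highest Chrne value of 0.224 FPKM. Chrne was not called without the filter (adjusted p = 0.227, limma; 0.107 without WT). At these levels, and with read numbers unknown, a difference in Chrne between the states was not detectable.

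By the mm9 annotation (GENCODE vM1) all 10 genes are protein-coding. Chrnd (chr1:89087227-89096644) and Chrng (chr1:89102386-89108410) are neighbours on the plus strand of chromosome 1, with 5741 bases between them. Chrna1 lies on the minus strand of chromosome 2 (chr2:73401272-73418395). Chrnb1 (chr11:69597538-69609445) and Chrne (chr11:70428385-70432718) both lie on the minus strand of chromosome 11. The processed transcript 4930544D05Rik lies within Chrne on the other strand, inside introns, and was at most 0.136 FPKM in any library. Whether the counting used strand is not given in the sources used here.

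Promoters of 7 of the 10 genes were matched in a table of RefSeq promoters (GRCm38.p6) that does not cover every gene, as windows of 250 bases before to 50 bases after the annotated start, and Dok7 had 2 of them. The promoters of Chrnd, Rapsn and Lrp4 were not analysed here. The windows were searched on both strands for the E-box CANNTG, its form CAGCTG (which is counted among the E-boxes too) and the N-box core CCGGAA, a motif known from endplate gene promoters. The 250 bases before the start are shown for Chrna1 and Chrng, which were both higher after differentiation, and for Chrne, which stayed near 0. Capitals mark E-boxes and the N-box core.
Chrna1 (GRCm38.p6, chr2:73580339-73580588, minus strand): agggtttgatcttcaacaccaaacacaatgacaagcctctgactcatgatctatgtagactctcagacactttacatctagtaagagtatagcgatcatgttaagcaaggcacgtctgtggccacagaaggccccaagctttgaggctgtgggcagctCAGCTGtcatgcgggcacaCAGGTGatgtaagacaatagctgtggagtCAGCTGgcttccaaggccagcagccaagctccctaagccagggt
Chrng (GRCm38.p6, chr1:87205561-87205810, plus strand): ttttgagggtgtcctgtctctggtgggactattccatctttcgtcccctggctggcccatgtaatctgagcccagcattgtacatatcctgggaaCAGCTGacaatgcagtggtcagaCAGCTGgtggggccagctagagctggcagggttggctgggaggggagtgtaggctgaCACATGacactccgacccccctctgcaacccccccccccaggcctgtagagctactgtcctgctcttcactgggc
Chrne (GRCm38.p6, chr11:70619195-70619444, minus strand): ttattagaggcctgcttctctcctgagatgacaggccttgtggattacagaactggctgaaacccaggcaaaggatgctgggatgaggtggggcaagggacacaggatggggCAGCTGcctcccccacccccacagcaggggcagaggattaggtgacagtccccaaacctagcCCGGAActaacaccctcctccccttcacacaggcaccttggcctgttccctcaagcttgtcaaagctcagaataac

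The Chrna1 and Chrng windows each held 3 E-boxes, 2 of them CAGCTG, and no N-box core. Their CAGCTG copies began 92 and 44 bases before the start of Chrna1, and 155 and 132 bases before that of Chrng. The Chrne window held 1 CAGCTG, 138 bases before the start, and the N-box core 76 bases before it, the one match of this motif in the 8 windows. Musk held 3 E-boxes with 1 CAGCTG and Chrnb1 3 E-boxes with none. Dok7 held 1 E-box in the first window and none in the second, and Ache held 1. Of 32851 promoters of the same length, 72.3% held an E-box, 16.3% a CAGCTG, 1.9% at least 2 CAGCTG and 14.9% the N-box core. A match describes these letters only. Binding was not measured.

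**Figure D2:**
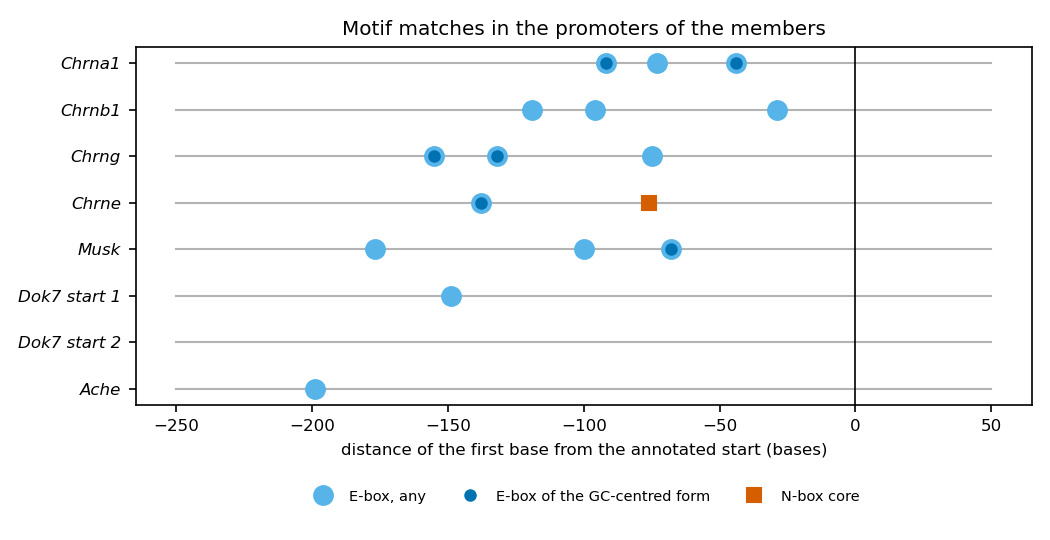
Motif matches in 8 promoter windows, by distance in bases of the first base of a match from the annotated start (vertical line), with E-boxes as light circles, those of the CAGCTG form with a dark centre, and the N-box core as a square. Chrna1 and Chrng each show 3 E-boxes, 2 of them with a dark centre, and the single square is in Chrne.

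The order of the subunit genes changed between the states. In growth the mean levels on the log2(FPKM + 1) scale were 5.68 (SD 0.41) for Chrna1, 4.45 (SD 0.30) for Chrnb1, 1.24 (SD 0.54) for Chrnd, 1.09 (SD 0.71) for Chrng and 0.01 (SD 0.05) for Chrne, each over 10 lines. In differentiated cells they were 7.75 (SD 0.59) for Chrna1, 7.56 (SD 0.81) for Chrng, 6.56 (SD 0.61) for Chrnd, 6.48 (SD 0.44) for Chrnb1 and 0.07 (SD 0.10) for Chrne. Thus Chrng moved from below Chrnb1 to above it. Chrnd and Chrnb1 were neighbours whose difference in differentiated cells, 0.08 on the log2 scale, was below its SD of 0.38 over lines.

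Set against Chrna1 within each library, the FPKM of Chrnb1 stayed at a like proportion, with a median ratio of 0.449 in growth and 0.408 in differentiated cells. The ratio of Chrnd to Chrna1 had a median of 0.0285 in growth and 0.421 in differentiated cells. That of Chrng to Chrna1 had a median of 0.0263 in growth and 0.995 in differentiated cells, where it ranged from 0.347 in H3t to 1.38 in H3mm13 and was above 1 in 5 of 10 libraries. Its neighbour Chrnd was below Chrng in 10 of 10 differentiated libraries, with a median Chrng to Chrnd ratio of 2.30, but Chrng exceeded Chrnd in only 2 of 10 growth libraries. Without WT the median ratios to Chrna1 in differentiated cells were 0.423 for Chrnb1, 0.432 for Chrnd and 1.06 for Chrng, which was above 1 in 5 of 9 libraries. These ratios compare mRNA levels per length and say nothing of subunit protein.

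**Figure D3:**
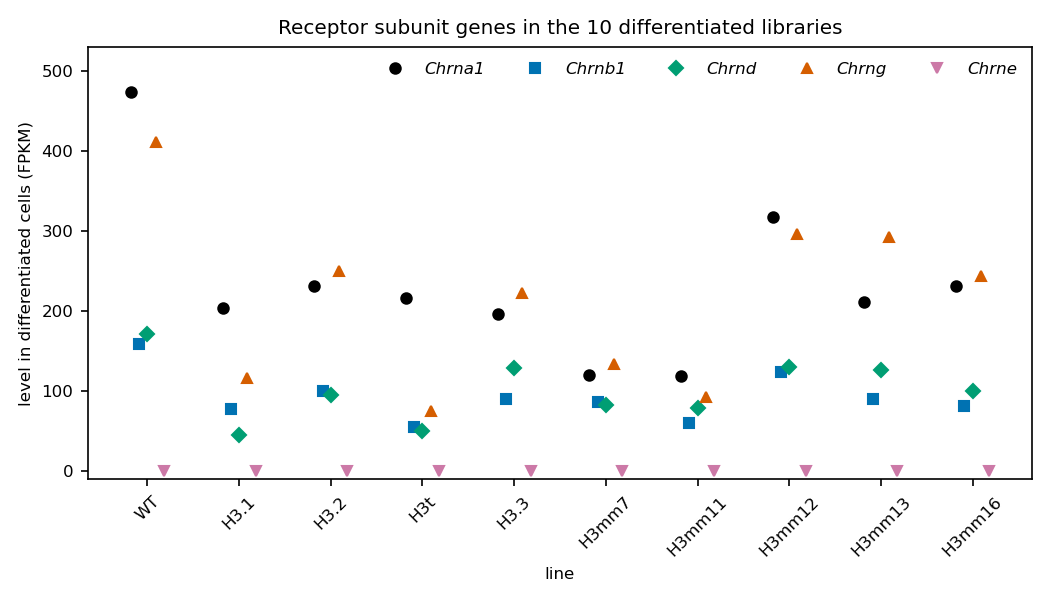
FPKM of the 5 receptor subunit genes in the 10 differentiated libraries, with 1 point per gene and line on a linear axis. Chrng lies near Chrna1 in most lines and well below it in H3.1 and H3t, and Chrne lies at the bottom in every line, at most 0.224 FPKM.

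Of the agrin pathway, Lrp4, the receptor of agrin (chr2:91297668-91354058, plus strand), had the largest difference. In growth it was 2.05 FPKM in the lowest line (H3t), 5.17 at the median and 10.2 in the highest (H3mm12). Its differentiated level was 11.4 FPKM in the lowest line (H3mm7), 35.4 at the median and 69.8 in the highest (H3mm12). The states lay close together without overlapping, since H3mm7 in the differentiated state was barely above H3mm12 in growth. The log2 difference was 2.41 (SE 0.29, adjusted p = 4.09e-07, limma, 10 of 10 lines), and 2.38 without WT. The 3 lowest differentiated libraries were H3mm7 at 11.4 FPKM, H3.3 at 16.7 FPKM and H3mm11 at 19.3 FPKM.

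Musk, the receptor kinase gene (chr4:58298834-58390290, plus strand), stayed among the low members. In growth it was 0.0222 FPKM in the lowest line (H3.1), 1.88 at the median and 5.12 in the highest (H3mm7). In differentiated cells it was 1.64 FPKM in the lowest line (H3.1), 6.37 at the median and 19.2 in the highest (H3mm12). It was the one called gene whose states overlapped, and it was higher after differentiation in 9 of 10 lines. In H3mm7 it was 5.12 FPKM in growth and 3.85 FPKM in differentiated cells. The log2 difference was 1.47 (SE 0.36, adjusted p = 0.00159, limma), and 1.36 without WT. With 0.01 FPKM added in place of 1, it was 2.28, more than 1.5 times as large, and still called (adjusted p = 0.00971, limma).

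Dok7, whose product binds MuSK from inside the cell (chr5:35399462-35430488, plus strand), ranged in growth from 0.591 FPKM in H3t to 5.05 FPKM in H3mm12, with a median of 1.59. In differentiated cells it ranged from 5.51 FPKM in H3mm11 to 15.1 FPKM in WT, with a median of 8.12. The states lay close together but did not overlap. The log2 difference was 1.77 (SE 0.24, adjusted p = 1.78e-06, limma, 10 of 10 lines), and 1.60 without WT.

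Rapsn, which encodes the receptor-clustering protein rapsyn (chr2:90875777-90885886, plus strand), had the highest growth level of the 10 genes and the smallest difference of the 8. Its growth level was 44.4 FPKM in the lowest line (H3t), 88.6 at the median and 143 in the highest (H3mm12). In differentiated cells it was 150.5 FPKM in the lowest line (WT), 196 at the median and 269 in the highest (H3mm12). The gap between the states was narrow. The log2 difference was 1.10 (SE 0.16, adjusted p = 5.62e-06, limma, 10 of 10 lines), and 1.11 without WT. The span of the lincRNA Gm13778 (chr2:90884249-90894090), on the other strand, reaches into the end of Rapsn and touches exon sequence of Rapsn there. Whether exons of Gm13778 lie in this stretch was not examined. Without strand, reads of both could not be separated in it.

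Over the 10 lines, growth and differentiated libraries did not overlap for 7 of the 8 genes. Of all genes tested, 8.85% were higher in every differentiated than in every growth library. Without WT it was again 7 of 8, and 11.4% of all genes tested. Among neighbours in the order of levels, Musk, Dok7, Chrnd and Chrng in growth differed by less than the SD of their difference over lines. In differentiated cells the same held for Chrna1, Rapsn and Chrng at the top of the order, and for Dok7 and Musk lower down. Rapsn stood above Chrna1 in 10 of 10 growth libraries, by 0.83 on the log2 scale (SD 0.45), and below it in 8 of 10 differentiated libraries, by 0.14 (SD 0.66). Without WT the mean of Rapsn was above that of Chrna1 in differentiated cells, and Dok7 and Musk changed places in growth. The order of the other genes was as with WT.

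Ache (chr5:137728747-137735694, plus strand) was near 0 throughout. In growth it ranged from 0 in H3mm11 to 0.128 FPKM in H3.3, with a median of 0.0427. In differentiated cells it ranged from 0.0238 FPKM in H3mm11 to 0.481 FPKM in WT, with a median of 0.0673, and the states overlapped. Without the filter its log2 difference of 0.07 was not called (adjusted p = 0.266, limma; 0.359 without WT). Among the other cholinesterase and anchor genes, Bche, which encodes butyrylcholinesterase, was at most 0.113 FPKM in any library. Colq, whose collagen tail anchors acetylcholinesterase in the endplate matrix, was below the filter. Its level ranged from 0 to 0.0722 FPKM in growth and from 0.265 to 3.53 FPKM in differentiated cells, highest in WT, with no overlap and no test. Prima1 was listed at 0 in 10 of 10 differentiated libraries. Hspg2, the gene of the matrix proteoglycan perlecan, was the 1 gene of the 4 tested and was not called.

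The lines differed in how far the genes moved. H3mm7 had the smallest change of the 10 lines in 7 of the 8 genes, with 0.82 for Chrna1, 4.31 for Chrnd, 4.61 for Chrng, 0.32 for Lrp4, 0.80 for Dok7, 0.73 for Rapsn and -0.34 for Musk on the log2(FPKM + 1) scale. In the same line Chrnd, Chrng and Musk had their highest growth levels. WT had the largest change in 5 of the 8 genes, with 2.76 for Chrna1, 2.93 for Chrnb1, 6.15 for Chrnd, 7.80 for Chrng and 3.24 for Dok7, and was the highest differentiated library for the same 5. The remaining largest changes were in H3t, for Musk (2.75) and Rapsn (1.88), and in H3.1, for Lrp4 (3.32). H3mm12 was the highest growth library for 4 of the 8 genes and the highest differentiated library for 3. H3t was the lowest growth library for 4. With 1 library per line and state, none of these differences between single lines could be tested. The myogenin gene Myog, a marker of differentiating myoblasts, also had its smallest change of the 10 lines in H3mm7 (4.37). Of the other myoblast and myotube markers, Des (0.19), Acta1 (4.04) and Ckm (5.94) also had their lowest change in H3mm7. So did Myod1, which fell in that line, and Pax7, which was low in every library. Myh3 had its lowest change in H3mm11 (5.33), and Myf5 had its highest in H3mm7 (1.82). Acta1 (9.66) and Myh3 (9.75) changed most in WT, and the other markers changed most in other lines. Myog changed most in H3.1 (8.24), and its change in WT was 6.83. In H3mm7 Myog was 23.1 FPKM in growth. Whether the stage of differentiation in H3mm7 had a part in its changes was not tested.

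**Figure D4:**
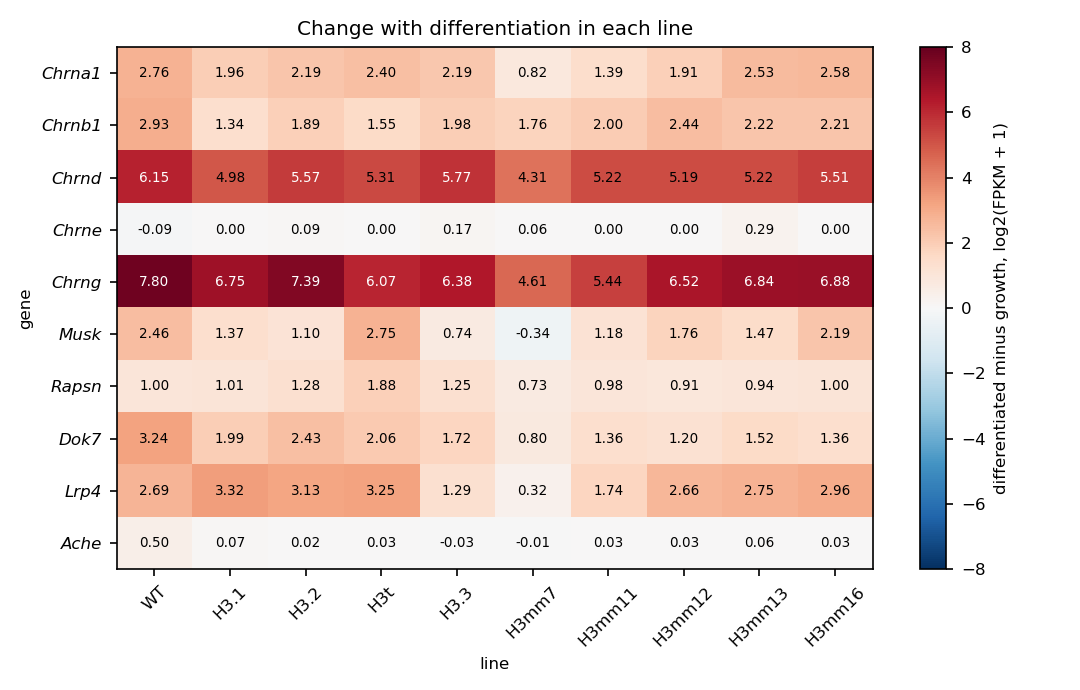
Change with differentiation of each gene in each line, as differentiated minus growth on the log2(FPKM + 1) scale, with the value printed in each cell (red higher and blue lower after differentiation). The H3mm7 column is the palest for most genes, with Musk at -0.34, and the Chrng row is the darkest.

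Over the 10 differentiated libraries the 8 genes varied together to different degrees. Pearson's r of log2(FPKM + 1) was above 0 in 27 of 28 pairs, with a median of 0.53. It was highest for Chrnb1 with Chrng (0.89), Chrnb1 with Dok7 (0.88) and Chrnd with Chrng (0.88), and lowest for Chrna1 with Rapsn (-0.13). Without WT the median was 0.52 over 9 libraries, but the pairs with Rapsn rose. Chrnb1 with Rapsn went from 0.19 to 0.90 and became the highest pair, Rapsn with Dok7 went from 0.20 to 0.69, and Chrna1 with Rapsn went to 0.39. The lowest pair was then Musk with Dok7 (-0.06, against 0.14 with WT). The pairs that were highest with WT stayed high, at 0.87 for Chrnb1 with Chrng, 0.84 for Chrnb1 with Dok7 and 0.84 for Chrnd with Chrng. Thus WT decided which pair was highest and which lowest, and mainly moved the pairs with Rapsn. The points share their libraries, WT included, and the correlations are given as descriptions. Among all genes tested, the genes with the most similar pattern over these 10 libraries were also listed. For Chrng they were Ryr1 (r = 0.96), Cacna1s (0.96) and Myoz2 (0.94), which encode the calcium release channel and the calcium channel of muscle and a sarcomere protein. For Chrnd they were Dysf (0.97), Myom2 (0.95) and C2cd5 (0.95). Chrna1 came closest to Pcyt1a (0.98), Peg13 (0.97) and Galnt4 (0.96), and Chrnb1 to Fam171a2 (0.99), Mybph (0.97) and Camk2a (0.95). For Lrp4 they were Cdkn2c (0.99), Pdzrn3 (0.98) and Asb2 (0.98), of which Pdzrn3 encodes a ubiquitin ligase that binds MuSK. For Musk they were Slc25a20 (0.94), Fam120c (0.94) and Pdha1 (0.94). Rapsn came closest to Adora1 (0.95), Bysl (0.94) and Atp5e (0.93), and Dok7 to Bet1l (0.92), Pomp (0.90) and Tbccd1 (0.90). Without WT, r of these 24 pairs was between 0.86 and 0.99. The partners were picked among all genes tested for the highest r over the same libraries. High values are built in by that search, and leaving out WT is no independent check.

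H3.3-type and H3.1/H3.2-type lines were then compared, 6 against 3 lines, without WT. In growth 0 of the 8 genes were called between the types by limma, where 0.21% of the 10931 genes tested were called. At an unadjusted p below 0.05 there were 6 of the 8 genes and 1033 of all genes, and all 6 had the higher mean in the H3.3-type lines. The log2 differences of these 6 were 1.29 for Musk (SE 0.49, adjusted p = 0.386), 1.22 for Chrng (SE 0.40, adjusted p = 0.273), 1.06 for Lrp4 (SE 0.41, adjusted p = 0.387), 0.89 for Chrnd (SE 0.26, adjusted p = 0.210), 0.77 for Dok7 (SE 0.32, adjusted p = 0.435) and 0.59 for Rapsn (SE 0.22, adjusted p = 0.357). For Chrna1 the log2 difference was 0.07 with a 95% interval from -0.55 to 0.69, and for Chrnb1 it was -0.31 with an interval from -0.77 to 0.16. Without H3t, whose growth level was the lowest, the difference of Rapsn was 0.28 in place of 0.59. With 0.1 FPKM added, that of Musk was 2.53 and that of Dok7 1.17, and neither was called.

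In 4 of the 8 genes every H3.3-type line was above every H3.1/H3.2-type line in growth, as were 5.95% of all genes tested. Chrng was 1.08 to 4.54 FPKM in the H3.3-type lines, against 0.0951 FPKM in H3.1, 0.501 FPKM in H3.2 and 0.128 FPKM in H3t. Chrnd was 1.17 to 3.21 FPKM against 0.464, 1.01 and 0.288 FPKM in the same order of lines. The other 2 genes were Lrp4, at 4.87 to 10.2 FPKM against 2.56, 3.26 and 2.05 FPKM, and Musk, at 1.62 to 5.12 FPKM against 0.0222, 1.54 and 0.525 FPKM. In growth Chrng, Chrnd and Musk were at most 5.12 FPKM in any line, and Lrp4 at most 10.2 FPKM. WT was within the H3.3-type range for Chrnd (1.44 FPKM), Musk (1.78 FPKM) and Lrp4 (6.93 FPKM). For Chrng, at 0.854 FPKM, it lay between the types. With 0.1 FPKM added in place of 1, Chrng (2.67, adjusted p = 0.0222, limma) and Chrnd (1.64, adjusted p = 0.0478, limma) were called higher in the H3.3-type lines in growth. The share of all genes called with 0.1 FPKM added was not computed. Over the 16 alternatives of this comparison the adjusted p of Chrng ranged from 0.0222 to 0.679 and that of Chrnd from 0.0478 to 0.778.

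Of the 8 markers of myoblasts and myotubes, 7 were tested between the types in growth and 1, Myog, was called. Myog was 7.35 to 23.1 FPKM in the H3.3-type and 0.106 to 3.21 FPKM in the H3.1/H3.2-type growth libraries, and was called higher in the H3.3-type (log2 difference 2.56, SE 0.45, adjusted p = 0.0245, limma). The other log2 differences were 2.62 for Acta1, 2.30 for Myod1, 0.63 for Des, 0.55 for Ckm, 0.24 for Myh3 and -0.18 for Myf5, with adjusted p from 0.0869 for Acta1 to 0.947 for Myh3 (limma). The sum of the 8 markers, most of it Des, was 398 to 770 FPKM in the H3.3-type and 260 to 304 FPKM in the H3.1/H3.2-type growth libraries, and 388 FPKM in WT. Ckm was listed at 0 in 1 growth library, H3.2, and Pax7 was at most 0.982 FPKM. The part of these markers in the levels of the endplate genes was not tested.

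**Figure D5:**
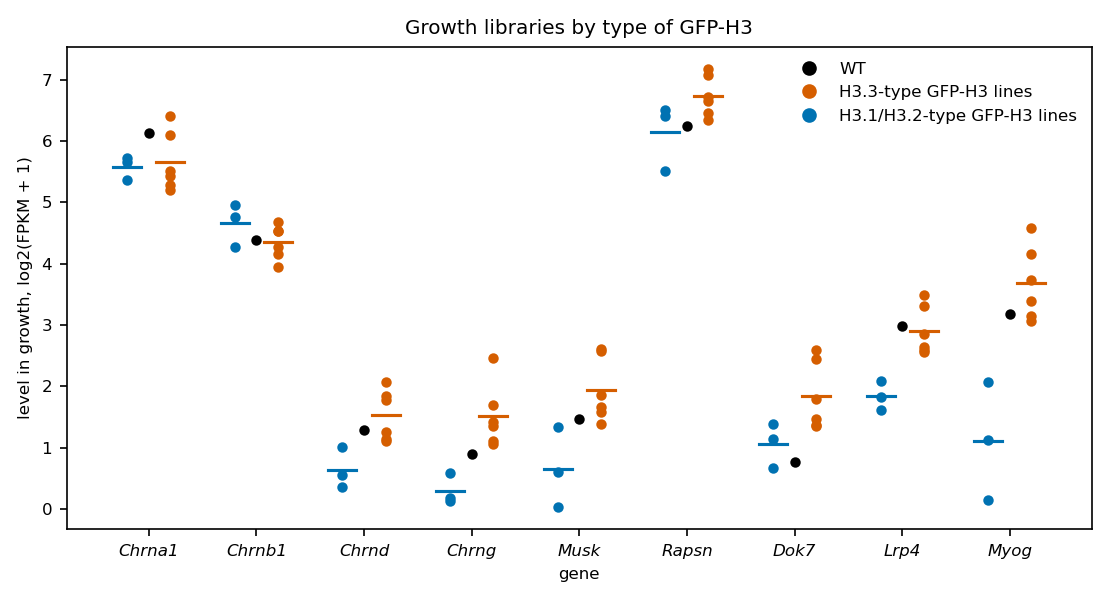
Growth levels of the 8 genes and of Myog on the log2(FPKM + 1) scale, with 1 point per line and a bar at the mean of each type (3 H3.1/H3.2-type lines in blue, WT in black, 6 H3.3-type lines in orange). The orange points lie above all blue points for Chrnd, Chrng, Musk, Lrp4 and Myog, and the 2 types overlap for the other genes.

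In differentiated cells 0 of the 8 genes were called between the types by limma, against 0.768% of all genes, and in 0 of the 8 did the H3.3-type lines lie wholly above the others (3.16% of all genes). At an unadjusted p below 0.05 there were 1 of the 8 genes and 2197 of all genes. The 1 gene was Chrnd, with a log2 difference of 0.81 (SE 0.26, adjusted p = 0.0959), at 79.5 to 130 FPKM in the H3.3-type lines against 45.2 FPKM in H3.1, 94.5 FPKM in H3.2 and 49.95 FPKM in H3t. When H3.2 was left out, Chrnd was called higher in the H3.3-type lines (1.14, adjusted p = 0.0190, limma). The share of all genes called without H3.2 was not computed. For Chrng the difference was 0.60 with a 95% interval from -0.24 to 1.43, and it was 0.20 without H3t and 1.07 without H3.2, not called in either case. For Chrna1 it was -0.21 with an interval from -0.83 to 0.41, so that the data allow a difference of either sign. The H3.3-type lines were spread widely for Chrna1, with an SD of 0.56 on the log2 scale against 0.09 in the H3.1/H3.2-type lines. H3mm11 (118 FPKM), H3mm7 (120 FPKM) and H3.3 (196 FPKM) were the lowest differentiated libraries, as they were for Lrp4. By expression in the same libraries, the paper groups these differentiated lines together, and H3mm12, H3mm13 and H3mm16 in a different group. The groups of the paper were not compared here. H3mm12 (317 FPKM) was the highest GFP-H3 line.

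At the threshold no gene was called between the types for the change with differentiation (0 of 8, and 0% of all genes). At an unadjusted p below 0.05 there were 1 of the 8 genes and 999 of all genes. That gene was Lrp4, whose level changed by 1.96 in the H3.3-type and by 3.23 in the H3.1/H3.2-type lines on the log2 scale, a difference of -1.28 (SE 0.58, adjusted p = 0.526, limma). Among H3.3-type lines the change of Lrp4 had an SD of 1.03, against 0.09 among the H3.1/H3.2-type lines, and H3mm7, H3.3 and H3mm11 were the lines with small changes. This fit, and its 0% of all genes, took the libraries of a line as independent. With the line as replicate block, adjusted p fell from 0.671 to 0.257 for Chrnb1 and from 0.612 to 0.186 for Dok7 (limma). Still 0 of the 8 genes were called, and the share of all genes called with this block was not computed.

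Other genes of the endplate were counted in lists, chosen with earlier results of these data known. Of all genes tested, 8.87% were called higher and 8.41% lower. None of the 11 neuronal-type receptor subunit genes passed the filter, and the highest value of any was 0.215 FPKM, for Chrnb2. Of 19 agrin and MuSK signalling partners, all tested, 1 was called higher and 1 lower. Fyn, a Src family kinase gene, went from 18.6 to 31.2 FPKM in growth to 57.3 to 102 FPKM in differentiated cells (log2 difference 1.73, SE 0.11, adjusted p = 2.75e-11, limma, 10 of 10 lines). Src fell by 1.31 on the log2 scale (SE 0.14, adjusted p = 8.71e-08, limma) and was lower in all 10 lines. The median log2 difference of this list was -0.01, against 0.04 over all genes, and 17 of the 19 genes were not called.

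Of 14 genes for transcriptional and neuregulin control of the endplate, 10 were tested and 2 were called, both higher (8.87% of all genes tested). Myog had a mean of 8.95 FPKM in growth and 648 FPKM in differentiated cells (log2 difference 6.34, SE 0.45, adjusted p = 1.49e-10, limma). Erbb3, a neuregulin receptor gene, was 0.360 to 1.01 FPKM in growth and 7.25 to 43.9 FPKM in differentiated cells (log2 difference 3.21, SE 0.25, adjusted p = 6.76e-10, limma). Gabpa, whose product binds the N-box, was not called (log2 difference 0.12, SE 0.13). Of 20 genes of the postsynaptic scaffold and matrix, 18 were tested, 7 were called higher and 0 lower, with a median log2 difference of 0.78. The largest were Sntb1, a syntrophin gene (3.3, SE 0.44), Lama2, a laminin chain gene (2.36, SE 0.29), and Ncam1, a cell adhesion gene (2.05, SE 0.19), each higher in 10 of 10 lines with an adjusted p of at most 1.64e-06 (limma). Of 8 genes of receptor assembly and glycosylation, 7 were tested and 0 were called, with a median log2 difference of -0.09. Of the 8 myoblast and myotube markers, 7 were tested and 5 were called higher, namely Ckm (7.51), Myh3 (7.26), Acta1 (6.55), Myog (6.34) and Des (1.40) on the log2 scale. Without WT, each of the calls counted in these lists was made again and 0 were added.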

How the data were processed

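mRNA-Seq of 10 C2C12 lines (WT and 9 GFP-H3 lines) in growth and differentiated states was used, 20 libraries in all. The deposited values are FPKM, which the authors obtained from cuffdiff (Cufflinks 2.0.1, default settings). TopHat 2.0.8 had placed the reads of GFP-H3 lines on mm9. No read counts are given, so depth is unknown and no count test was run. Columns of the table were matched to lines by name, with the columns named H3mmT taken as the H3t line.

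The 10 genes and all other lists were chosen with earlier results of these data known. log2(FPKM + 1) of genes with a mean of at least 1 FPKM was fitted with limma 3.58.1 (R 4.3.3, trend and robust settings) over all genes, 10954 for the states and 10931 for the types of GFP-H3. A call needed an adjusted p (Benjamini-Hochberg) under 0.05 together with a log2 difference no smaller than 1. The type comparison used 6 H3.3-type and 3 H3.1/H3.2-type lines, with the states in 1 fit. SE is the standard error of a log2 difference, SD the standard deviation over lines, and 95% intervals are those of limma. All 10 genes are named, as are at most 3 called genes per list and direction, and the 3 genes most like each member. Bche, Colq, Prima1, Hspg2, Gabpa, Chrnb2, Gapdh and the markers beyond these were named after their values were seen. The growth and differentiated libraries of a line come from the same cell line and were treated as pairs in an alternative fit. Values of the lists, levels and ratios without WT were added after the data were seen. Deviations from the state means correlated between the libraries of a line with r from 0.27 to 0.88, and 10 of 10 lines correlated best with themselves. Promoter motifs were counted by exact letters. ChIP-Seq, 3′-seq and amplicon data were not analysed here. Tables were joined and plotted with Python 3.11.15, pandas 2.3.3, numpy 2.4.6 and matplotlib 3.10.9.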

Additional observations from a re-analysis of the deposited data

Results flagged for a closer look

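In each of 20 groups of 10 libraries (10 genes in 2 states), the gap between an extreme library and its nearest neighbour was set against the range of the group on the log2(FPKM + 1) scale, with Dixon's 95% critical value as the limit. For normally distributed values, chance alone is expected to pass this limit in about 1 of 20 groups. That rate does not hold for values at the floor. Where 9 of 10 libraries are at 0, any value above 0 passes. The limit was passed by 2 groups, both with WT as the extreme library and both in genes near 0. Chrne in growth was 0.109 FPKM in WT and listed at 0 in the other 9 libraries. Ache in differentiated cells was 0.481 FPKM in WT, and the next library, H3mm13, was at 0.114 FPKM.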

How the results depend on the processing

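In the comparison of states, the 8 genes stayed called higher under all 18 alternatives, which changed the pseudocount, the filter, the scaling, the limma settings and the pairing of libraries, or left out 1 line. Over all genes, the count of calls was 1893 and ranged from 1429 to 2348. With the line as replicate block, 8 genes of the endplate and 1910 of all genes were called between the states and 0 of the 8 between the types, so the pairing changed no call of the 8 genes. When each line was left out in turn, the 8 genes stayed at 8 and all genes ranged from 1848 to 1978. Between the types in growth, 2 genes (Chrng and Chrnd) were called with 0.1 FPKM added, against 0 as reported. Between the types in differentiated cells, leaving out 1 line gave 0 to 1 genes called, the 1 being Chrnd without H3.2. For the growth levels and for the change with differentiation it gave 0 in every case. The cause of these shifts was not tested. Under the alternatives the share of all genes called between the types was not computed, so these counts cannot be set against it. The median log2 difference between the states over all genes was 0.04 as deposited, 0.05 after a median shift and 0.01 after quantile normalization. With read numbers unknown, no limit can be set on Chrne and Ache where they were listed at or near 0.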
